A study of Mus musculus with 6 samples.

Results

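The interferon-stimulated genes followed here are 40 mouse genes that cells switch on in answer to interferons, read out in macrophages grown from the bone marrow of Bach1 knockout (KO) and wild-type (WT) mice. The members are a list of symbols, and each member was represented by the probe with the highest mean among its probes matched by transcript accession. A probe was found for 38 of the 40 through its transcript accession, and all 38 were among the 15736 genes tested. Mx1 and Mx2 could not be matched to a probe in this way and were not analysed here. Matching by the gene names given for the probes was not tried. The study holds 6 one-colour Agilent arrays, 1 per mouse, of C57BL/6 mice aged 11 weeks whose marrow was cultured for 5 days with the growth factor GM-CSF (granulocyte-macrophage colony-stimulating factor). The KO mice are called KO 947, KO 948 and KO 949, and the WT mice WT 1, WT 2 and WT 3. Each genotype has 2 mice labelled male and 1 labelled female, which is KO 949 among the KO and WT 3 among the WT mice. No interferon or other stimulus is named in the labels for either genotype, and the labels do not say how Bach1 was inactivated.

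Interferons are secreted proteins that warn cells of infection. Type I interferons act through the receptor chains Ifnar1 and Ifnar2 and the kinases Jak1 and Tyk2, which lead to a transcription complex that contains Stat2 and Irf9. This complex binds the interferon-stimulated response element (ISRE) in promoters. Interferon gamma acts through Jak1 and Jak2, and its target genes often carry the gamma-activated site (GAS). Macrophages are known to keep a low level of this programme through small amounts of interferon beta that they make themselves. Bach1 is a heme-binding repressor that pairs with small Maf proteins on elements in the promoters and enhancers of heme and iron genes.

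Promoters of 7 members are printed to show these elements beside the values, from 250 bases before to 50 bases after the start of each gene, with sequences from RefSeq (GRCm38.p6). They are Ifit1, Isg15, Irf7, Gbp2, Irf1, Psmb9 and the member with the largest difference between the genotypes, Ifit3. Capitals mark matches to the ISRE (GAAA and again GAAA, 2 bases apart), the GAS (TTCNNNGAA) or a Bach1-type element (TGANTCAGC) on either strand. A match on the other strand reads as the reverse complement, as in the TTTC runs of Ifit1.
Ifit1, chr19:34640639-34640938, plus strand: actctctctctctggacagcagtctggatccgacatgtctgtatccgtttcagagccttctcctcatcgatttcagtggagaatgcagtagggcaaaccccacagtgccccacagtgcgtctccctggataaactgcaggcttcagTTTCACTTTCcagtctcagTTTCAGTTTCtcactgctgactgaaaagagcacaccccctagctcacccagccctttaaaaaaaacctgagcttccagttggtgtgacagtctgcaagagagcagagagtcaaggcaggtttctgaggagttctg
Isg15, chr4:156200769-156201068, minus strand: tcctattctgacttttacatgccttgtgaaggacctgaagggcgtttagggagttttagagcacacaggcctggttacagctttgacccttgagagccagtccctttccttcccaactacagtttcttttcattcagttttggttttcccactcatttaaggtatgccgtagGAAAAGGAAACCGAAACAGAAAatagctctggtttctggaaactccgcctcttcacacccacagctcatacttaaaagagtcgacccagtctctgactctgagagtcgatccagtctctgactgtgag
Irf7, chr7:141266375-141266674, minus strand: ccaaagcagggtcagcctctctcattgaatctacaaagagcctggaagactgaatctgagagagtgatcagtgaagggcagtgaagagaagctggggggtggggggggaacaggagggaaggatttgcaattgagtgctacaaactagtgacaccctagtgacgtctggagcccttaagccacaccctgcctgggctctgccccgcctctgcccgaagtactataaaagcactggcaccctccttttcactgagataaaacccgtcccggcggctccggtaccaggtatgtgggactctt
Gbp2, chr3:142620413-142620712, plus strand: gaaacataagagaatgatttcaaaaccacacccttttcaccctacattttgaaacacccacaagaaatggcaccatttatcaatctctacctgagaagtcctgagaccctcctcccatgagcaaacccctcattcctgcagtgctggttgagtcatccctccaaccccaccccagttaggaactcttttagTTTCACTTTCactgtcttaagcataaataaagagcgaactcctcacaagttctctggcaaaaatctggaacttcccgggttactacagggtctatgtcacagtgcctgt
Irf1, chr11:53769764-53770063, plus strand: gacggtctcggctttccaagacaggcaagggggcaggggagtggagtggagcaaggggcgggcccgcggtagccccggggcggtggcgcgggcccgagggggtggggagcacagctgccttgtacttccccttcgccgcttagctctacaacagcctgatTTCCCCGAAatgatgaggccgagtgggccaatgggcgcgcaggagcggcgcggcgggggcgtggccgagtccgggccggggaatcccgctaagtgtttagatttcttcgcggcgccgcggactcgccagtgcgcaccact
Psmb9, chr17:34187281-34187580, minus strand: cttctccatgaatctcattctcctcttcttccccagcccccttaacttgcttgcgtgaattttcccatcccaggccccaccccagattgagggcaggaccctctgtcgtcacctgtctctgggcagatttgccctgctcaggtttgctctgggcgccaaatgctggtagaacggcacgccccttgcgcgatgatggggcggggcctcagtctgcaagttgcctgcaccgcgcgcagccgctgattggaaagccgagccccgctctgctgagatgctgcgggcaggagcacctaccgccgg
Ifit3, chr19:34583279-34583578, plus strand: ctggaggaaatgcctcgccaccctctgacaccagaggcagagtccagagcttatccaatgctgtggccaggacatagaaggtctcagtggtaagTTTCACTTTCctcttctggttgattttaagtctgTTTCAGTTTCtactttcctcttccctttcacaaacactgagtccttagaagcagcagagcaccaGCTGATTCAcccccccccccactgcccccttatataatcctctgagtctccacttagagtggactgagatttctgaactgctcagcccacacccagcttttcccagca
The Ifit1 window held ISRE matches that begin 104 and 85 bases upstream of the start, and the Ifit3 window held them 156 and 122 bases upstream. In Isg15, 3 matches overlapped, beginning 78, 72 and 66 bases upstream. Gbp2 had 1 ISRE match 59 bases upstream, and Irf1 had 1 GAS match 90 bases upstream. Ifit3 also held a Bach1-type match 58 bases upstream. No match stood in the Irf7 and Psmb9 windows. The table held windows for 31 of the 40 members, 36 windows in all. The ISRE letters were in 18 of these (50%), against 3.44% of all 32851 windows, and the GAS letters in 10 (27.8%), against 8.30%. The Bach1-type letters were in 3 (8.33%), those of Ifit3, Irgm1 and Trim30a, against 1.19% of all windows. These are letter matches, not binding sites.

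Spots well above background made up 62.5% to 65.1% of the KO arrays and 70.3% to 73.2% of the WT arrays, and no spot was saturated. KO 947 was on the same slide as the 3 WT arrays, and KO 948 and KO 949 were on another. A level is the log2 signal minus the log2 of its array's 75th percentile, and a difference is KO minus WT with the standard error (SE, n = 3 mice per genotype). The number of arrays limits the precision of every value. The Bach1 probe used read 1.45, 2.00 and 2.23 on KO 947, 948 and 949, against 2.21, 2.48 and 2.59 on WT 1, 2 and 3 (-0.54 ± 0.24, adjusted p = 0.262). The labels do not tell whether it lies in the deleted part, and the genotypes overlapped, so it is no check of the labels.

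None of the 38 tested members changed past the threshold between KO and WT macrophages. Of other listed interferon-inducible genes, Apol9a, Apol9b, Cxcl10 and Ciita fell past it, as given below. Of the 38 members, 25 had a lower mean in KO and 13 a higher one, with a median difference of -0.18, against -0.0062 over all genes tested, of which 50.8% were lower. In the limma fit over all 15736 genes, with Benjamini-Hochberg adjustment, 3.41% of all genes passed an adjusted p of 0.05, 2.27% lower and 1.14% higher in KO. The adjusted p of the members ran from 0.0764 for Gbp2 to 0.974 for Rtp4. At an unadjusted p under 0.05, 4 members were lower in KO (Gbp2, Oasl1, Ifit3 and Ifi44), a call that 11.6% of all genes had, and 0 were higher, against 8.87% of all genes (20.4% in either direction). The 3 KO arrays lay below the 3 WT arrays in 5 members (Stat2, Oasl1, Ifi44, Gbp2 and Psmb9), as in 13.5% of all genes, and above them in 0, against 13.4%. The groups thus did not overlap in 5 of 38 members and in 26.9% of all genes. When each array was scaled to its median, the median of all genes moved to 0.21, and 22 of the 38 members were higher in KO with a median of 0.036. The members' median was -0.030 without KO 949, -0.027 without WT 3 and -0.31 without WT 2. Relative to all genes, the members' median was lower under both scalings.

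**Figure D1:**
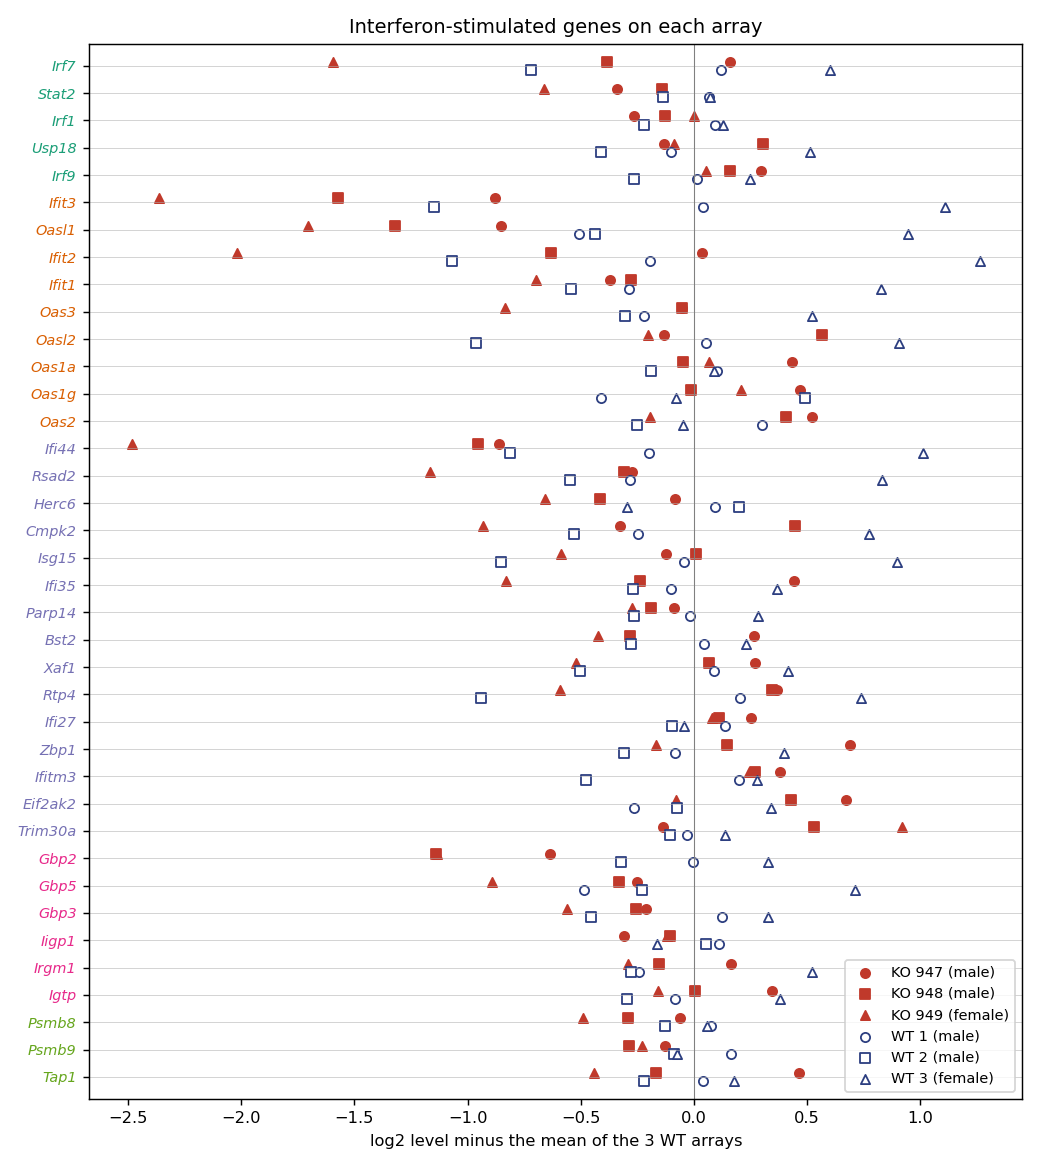
Log2 level of each of the 38 interferon-stimulated genes on each array, minus the mean of the 3 WT arrays, with KO arrays as filled red symbols and WT arrays as open blue symbols; triangles are the mice labelled female, and gene names are coloured by role. KO 949 is the lowest KO array in 30 genes and WT 3 the highest WT array in 30 genes.

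The members that carry the interferon signal or switch on the others showed no passing difference. Stat2, a subunit of the transcription complex of type I interferon, read 3.19, 3.39 and 2.87 on KO 947, 948 and 949, against 3.60, 3.39 and 3.60 on WT 1, 2 and 3. All KO arrays lay below all WT arrays, though KO 948 lay just under WT 2 (-0.38 ± 0.18, adjusted p = 0.296). Irf7, the factor that amplifies type I interferon production, read -0.10, -0.65 and -1.86 in KO, against -0.14, -0.98 and 0.34 in WT. KO 949 was far below the other arrays, and the genotypes overlapped (-0.61 ± 0.51, adjusted p = 0.556). Irf1, which drives genes of antigen processing and is itself a target of interferon gamma, read 4.45, 4.59 and 4.72 in KO and 4.81, 4.50 and 4.84 in WT (-0.13 ± 0.16). Irf9, the DNA-binding subunit of the complex with Stat2, read 4.35, 4.22 and 4.11 in KO and 4.07, 3.79 and 4.30 in WT (0.17 ± 0.18). Usp18, which removes Isg15 from proteins and blocks the type I receptor, read 1.87, 2.30 and 1.91 in KO and 1.90, 1.59 and 2.51 in WT (0.027 ± 0.27). In Irf1, Irf9 and Usp18 the genotypes overlapped, with adjusted p of 0.699, 0.636 and 0.968.

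The IFIT proteins bind foreign RNA and block its translation. Of all 38 members, Ifit3 had the largest difference. It read 2.19, 1.50 and 0.71 on KO 947, 948 and 949, against 3.11, 1.92 and 4.18 on WT 1, 2 and 3 (-1.61 ± 0.61, adjusted p = 0.206). KO 947 lay above WT 2, so the genotypes overlapped, and the WT arrays alone spanned 2.26. Ifit2 read -2.05, -2.72 and -4.11 in KO, against -2.28, -3.16 and -0.82 in WT (-0.87 ± 0.71, adjusted p = 0.540). Here KO 949 was the lowest array and WT 3 the highest, and KO 947 lay above WT 1 and WT 2. Ifit1 read -2.55, -2.46 and -2.88 in KO, against -2.47, -2.73 and -1.36 in WT (-0.45 ± 0.36, adjusted p = 0.535), with WT 3 apart from the 5 other arrays.

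The OAS enzymes sense double-stranded RNA and make a small messenger molecule in answer, and Oasl1 and Oasl2 are relatives of them. Oasl1, which is known in mice to limit translation of Irf7, read -1.03, -1.50 and -1.88 in KO, against -0.68, -0.62 and 0.77 in WT. All KO arrays lay below all WT arrays (-1.29 ± 0.43, adjusted p = 0.157). Oasl2 read 1.62, 2.32 and 1.55 in KO and 1.81, 0.79 and 2.66 in WT, with the KO arrays inside the WT range (0.077 ± 0.47). Oas3 had a difference of -0.31 ± 0.31, Oas2 of 0.25 ± 0.25, Oas1g of 0.22 ± 0.26 and Oas1a of 0.15 ± 0.18, and in all 4 genes the genotypes overlapped. Of the 9 measured IFIT and OAS genes 5 were lower and 4 higher in KO, with a median of -0.31 and 0 calls. Whether probes of close relatives in these families also catch each other's transcripts was not tested.

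Other antiviral effectors differed by -1.43 to 0.44, with 9 of 15 lower in KO and 0 calls. Ifi44, an interferon-induced antiviral protein, read -4.97, -5.06 and -6.59 in KO, against -4.31, -4.92 and -3.10 in WT. The groups did not overlap (-1.43 ± 0.59, adjusted p = 0.237), and 2 of the 3 KO arrays were well above background. It was the only member not well above background on all 6 arrays. Rsad2, which encodes viperin, the enzyme that makes a chain-terminating nucleotide, read 2.43, 2.39 and 1.54 in KO and 2.42, 2.15 and 3.54 in WT (-0.58 ± 0.41, adjusted p = 0.479). The mitochondrial nucleotide kinase Cmpk2 read 0.09, 0.87 and -0.51 in KO and 0.17, -0.11 and 1.19 in WT (-0.27 ± 0.45). In both genes KO 949 was the lowest array and WT 3 the highest.

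Isg15, the ubiquitin-like protein that is attached to other proteins during an interferon response, read 3.75, 3.88 and 3.28 in KO, against 3.83, 3.02 and 4.77 in WT. All KO arrays lay between WT 2 and WT 3 (-0.24 ± 0.43, adjusted p = 0.799). Herc6, the ligase known to attach Isg15 in mice, had a difference of -0.39 ± 0.21 (adjusted p = 0.362). The kinase Eif2ak2 (PKR), which stops translation in infected cells, read 2.19, 1.95 and 1.44 in KO and 1.25, 1.44 and 1.86 in WT (0.34 ± 0.25, adjusted p = 0.496). Trim30a, which in mice is known to restrain Toll-like receptor signalling, had the highest difference of the members. It read 1.52, 2.18 and 2.57 in KO and 1.62, 1.54 and 1.79 in WT, and KO 947 lay below all WT arrays (0.44 ± 0.27, adjusted p = 0.419). Ifitm3, which blocks entry of viruses from endosomes, differed by 0.30 ± 0.23, and the nucleic acid sensor Zbp1 by 0.22 ± 0.28. The tether Bst2, which holds budding virus at the cell surface, differed by -0.15 ± 0.24. Ifi27, Rtp4, Xaf1, Parp14 and Ifi35 ran from -0.21 for Ifi35 to 0.15 for Ifi27.

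The guanylate-binding proteins and the immunity-related GTPases attack the vacuoles of intracellular pathogens and answer above all to interferon gamma. Gbp2 came closest to the threshold. It read 3.81, 3.31 and 3.31 on KO 947, 948 and 949, against 4.44, 4.13 and 4.78 on WT 1, 2 and 3, with no overlap between the genotypes. Its difference was -0.97 ± 0.23, a level 1.96-fold lower in KO, with an adjusted p of 0.0764. Within the slide that holds both genotypes the difference was -0.64 (adjusted p = 0.419), and without KO 947 it was -1.14 and passed (adjusted p = 0.0464). Gbp5, which promotes inflammasome assembly, read -1.49, -1.57 and -2.13 in KO and -1.72, -1.46 and -0.52 in WT (-0.49 ± 0.34). Gbp3 differed by -0.34 ± 0.24. The GTPases Iigp1 (-0.18 ± 0.15), Irgm1 (-0.093 ± 0.26) and Igtp (0.064 ± 0.23) had smaller differences, and in these 5 genes the genotypes overlapped.

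Of the members that prepare peptides for class I antigen presentation, the immunoproteasome subunit Psmb9 read 5.75, 5.59 and 5.64 in KO, against 6.04, 5.78 and 5.80 in WT. The groups did not overlap (-0.21 ± 0.15, adjusted p = 0.458). Psmb8, another such subunit, read 6.41, 6.18 and 5.98 in KO and 6.54, 6.34 and 6.53 in WT, with KO 947 above WT 2 (-0.28 ± 0.17, adjusted p = 0.394). The peptide transporter subunit Tap1 read -0.59, -1.23 and -1.50 in KO and -1.02, -1.28 and -0.88 in WT (-0.047 ± 0.26). With arrays scaled to their median, Psmb9 and Tap1 were at 0.0022 and 0.17.

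**Figure D2:**
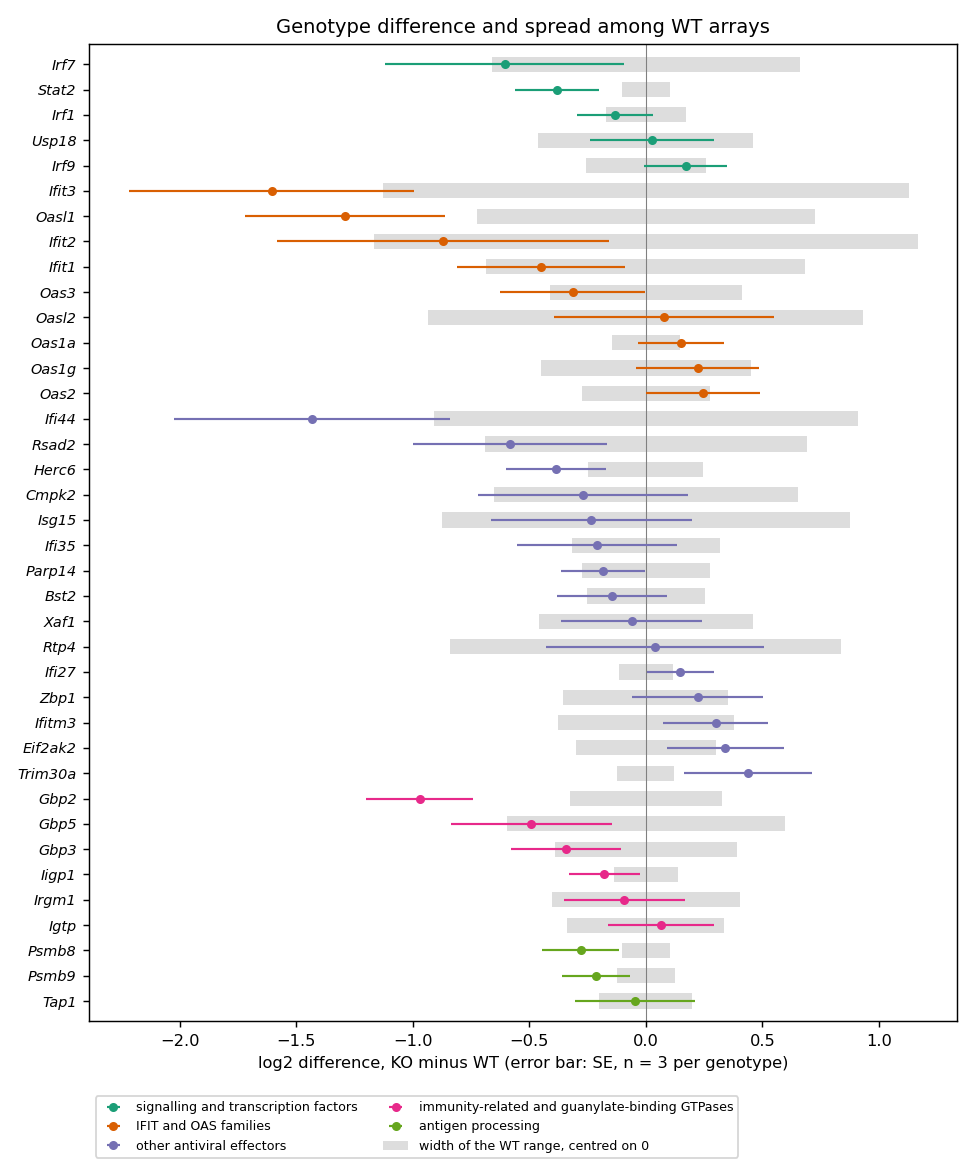
Log2 difference KO minus WT of each member with its SE (n = 3 mice per genotype), coloured by role, over a grey bar whose width is the range of the 3 WT arrays, centred on 0. The differences run from -1.61 for Ifit3 to 0.44 for Trim30a.

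The WT mice differed among themselves by more than the genotypes did in most members. The difference KO minus WT was smaller than the range of the 3 WT arrays in 34 of 38 members (89.5%), against 67.9% of all genes. The 4 exceptions were Gbp2, Stat2, Psmb8 and Trim30a. The median SD over the KO arrays was 0.33 for the members and 0.24 for all genes, and over the WT arrays 0.38 and 0.22. Among the roles, the WT SD was highest in the IFIT and OAS genes, with a median of 0.73, and lowest in the antigen processing genes, with 0.14. The 17 members with an ISRE match in their window had a median WT SD of 0.42, and the 14 with a window and no match 0.40. Their median differences between the genotypes were both -0.24.

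This spread ran the same way in most members. Among the KO arrays, KO 949 was the lowest in 30 of 38 members, against 34.6% of all genes, and KO 947 the highest in 28, against 47.5%. WT 3 was the highest WT array in 30 of 38 members, against 35.0% of all genes, and WT 2 the lowest in 32, against 33.9%. The whole order WT 3, WT 1, WT 2 from high to low held in 27 members, among them all 5 signalling and transcription factors, against 18.3% of all genes. Set against the mean of the 3 WT arrays, the median member was at -0.074, -0.13 and -0.46 on KO 947, 948 and 949 and at 0.0042, -0.29 and 0.35 on WT 1, 2 and 3. Over all genes that median stayed between -0.029 and 0.025 on all 6 arrays. The members share each array, so these counts describe 6 mice and not 38 independent measurements.

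**Figure D3:**
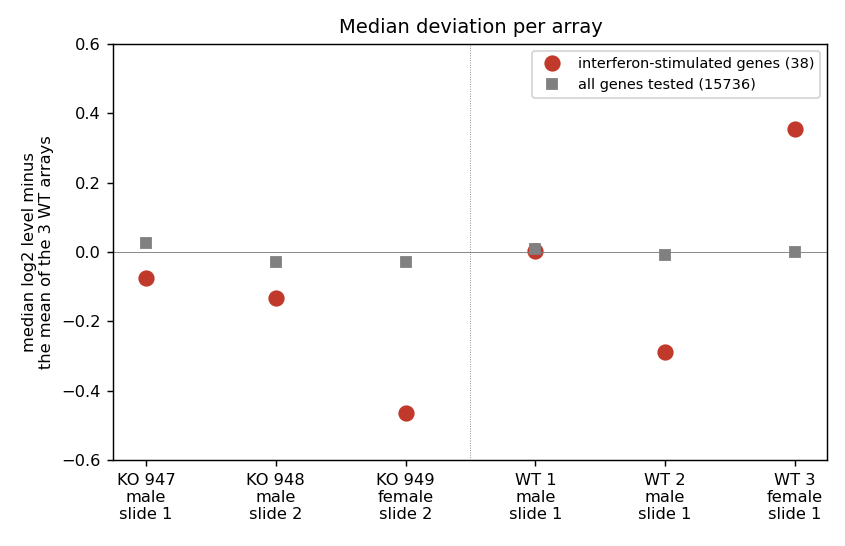
Median over genes of the log2 level minus the mean of the 3 WT arrays, for the 38 interferon-stimulated genes (red circles) and all 15736 genes tested (grey squares), by array with its labelled sex and slide. The members sit at -0.46 on KO 949 and at 0.35 on WT 3, while all genes stay near 0.

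Set against the WT range, KO 947 was within it in 20 of 38 members, below it in 8 and above it in 10. KO 948 was within it in 26, below it in 9 and above it in 3. KO 949 was below the WT range in 22 members, within it in 15 and above it in 1, which was Trim30a. Over all genes, the shares below the WT range were 29.2%, 33.6% and 35.6% on KO 947, 948 and 949, and those above it 34.5%, 29.1% and 31.6%.

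The lowest KO and the highest WT array were those of the mice labelled female. Between the female mice the members' median difference, KO 949 minus WT 3, was -0.69 (-0.026 over all genes), and 34 of 38 were lower in KO, against 51.7% of all genes. Between the male mice it was 0.20 (0.0073 over all genes), and 11 of 38 were lower, against 49.3% of all genes. In 24 of 38 members the difference was negative between the females and positive between the males, against 3222 of the 15736 genes tested. Ifit2 stood at -3.28 and 0.33, Irf7 at -2.20 and 0.19, Rsad2 at -2.00 and 0.12, and Isg15 at -1.48 and 0.39. Ifit3, Oasl1 and Gbp2 were lower in KO in both sexes, at -3.47 and -0.67, -2.65 and -0.61, and -1.46 and -0.72.

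The difference between the sexes was itself tested as an interaction of genotype with labelled sex in limma, and 0 of 38 members passed. Each female arm is 1 mouse, so the spread in this test comes from the male mice and from limma's sharing across genes. The lowest adjusted p of a member was 0.405, for Ifi44, which was not well above background on KO 949. At an unadjusted p under 0.05 there were 16 members, against 7.12% of all genes. Of all genes 0.0254% passed after adjustment. With 1 female mouse per genotype, sex and the single mouse cannot be told apart, and KO 949 also lay on another slide than WT 3.

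**Figure D4:**
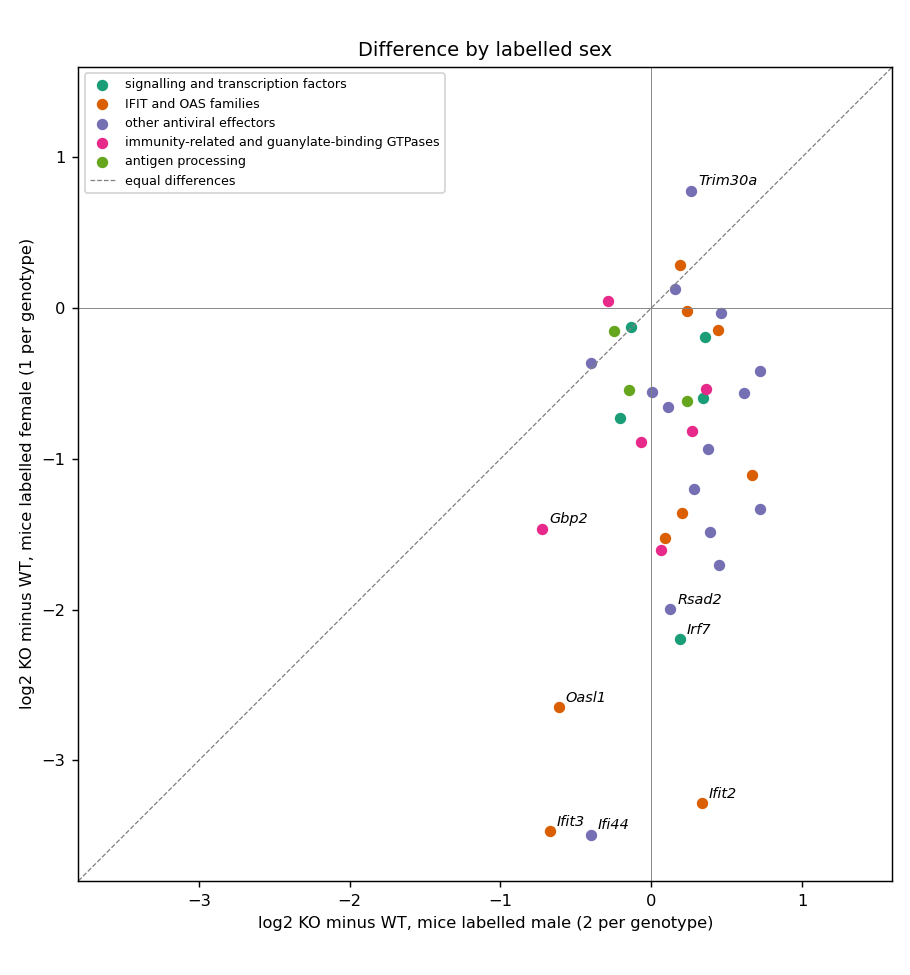
Log2 difference KO minus WT of each member between the mice labelled male (horizontal axis, 2 per genotype) and those labelled female (vertical axis, 1 per genotype), coloured by role, with a dashed line where both are equal; Ifi44 was not well above background on KO 949. In 24 of the 38 members the difference is negative between the females and positive between the males, against 3222 of the 15736 genes tested.

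The slide did not hold the groups evenly. With the slide as a block, KO 947 alone sets the contrast, and the members' median difference was -0.074, with 21 of 38 lower and 0 past the threshold, against 0.534% of all genes. Irf7 was then at 0.16, Ifit2 at 0.038, Ifit3 at -0.88, Ifi44 at -0.86 and Oasl1 at -0.85. Differences between KO 948 or KO 949 and the WT arrays cannot be told apart from a difference between the slides.

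Of the interferons themselves, 5 of 9 listed genes were tested, and 0 passed the threshold. All 5 were lower in KO, as 50.8% of all genes were, with a median of -0.20 and a smallest difference of -0.11. With arrays scaled to their median, 3 of the 5 were higher in KO. Ifnb1, which encodes interferon beta, read -7.48, -6.42 and -7.64 in KO, against -2.48, -5.33 and -3.62 in WT. No KO array and all 3 WT arrays read it well above background. It was at least 4.43-fold lower in KO, with an adjusted p of 0.0580 that missed the threshold. The bound sets the WT mean against the mean, over the 3 KO arrays, of the lowest level well above background on each. It was 2.79-fold without WT 1 and 7.50-fold without WT 2. Among the WT arrays, Ifnb1 was highest on WT 1, unlike most members, and lowest on WT 2, like most members. Its KO values, none well above background, were lowest on KO 949, like most members, and highest on KO 948, unlike most. Ifna4 was well above background on 1 of 3 KO arrays and 3 of 3 WT arrays, so its measured difference of -0.72 ± 0.26 rests in part on signals not above background (adjusted p = 0.179). Ifng, which encodes interferon gamma, was well above background on 1 KO and 1 WT array and was not tested.

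Among 11 receptor, kinase and Stat genes, 2 fell in KO, as 2.27% of all genes did, and 0 rose. Ifnlr1, a chain of the receptor for interferon lambda, read -2.57, -1.97 and -2.25 in KO, against -0.92, -0.48 and 0.51 in WT (-1.96 ± 0.37, adjusted p = 0.0456). Jak2, a kinase of the interferon gamma receptor and of the GM-CSF receptor, read 3.28, 3.64 and 3.87 in KO, against 4.60, 4.59 and 4.47 in WT (-0.96 ± 0.19, adjusted p = 0.0477). Neither passed once slide was a block (-2.27, adjusted p = 0.131, and -1.28, adjusted p = 0.0599). Ifnar1 and Ifnar2, the type I receptor chains, differed by -0.0055 and 0.069.

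None of the 17 tested genes of nucleic acid sensing and interferon induction passed, and 2 had an unadjusted p under 0.05, both higher in KO, a call that 8.87% of all genes had. The largest 2 differences were those of Tlr7 (0.79 ± 0.23, adjusted p = 0.120) and Tlr3 (0.79 ± 0.22, adjusted p = 0.118), endosomal receptors for RNA. Of 9 tested negative regulators of the signal 0 passed, and 1 had an unadjusted p under 0.05, lower in KO, a call that 11.6% of all genes had. The largest 2 differences were those of Pias4, a SUMO ligase that restrains the signal, at -0.65 ± 0.21, and the Jak inhibitor Socs1, at 0.47 ± 0.25.

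Other genes induced by type I interferon numbered 33 tested, with a median of 0.037, 18 higher and 15 lower. Of the 33, 2 fell in KO, against 2.27% of all genes. The 2 were a pair of apolipoprotein L genes of mice, Apol9a (-0.97 ± 0.18, adjusted p = 0.0409) and Apol9b (-1.72 ± 0.31, adjusted p = 0.0403). Whether the probes of these close relatives share signal was not tested. WT 3 was the highest WT array in 25 of these 33 genes too, against 35.0% of all genes. KO 949 was the lowest KO array in 12 (36.4%, against 34.6% of all genes), and KO 947 the highest in 14 (42.4%, against 47.5%). Among 19 tested genes listed as other interferon gamma-inducible genes, 15 were lower, against 50.8% of all genes, and the median was -0.20. With arrays scaled to their median, 11 of the 19 were higher in KO, with a median of 0.022, against 0.21 over all genes. Past the threshold, 2 of the 19 fell, against 2.27% of all genes. Cxcl10, a chemokine for activated T cells, read 0.54, 0.33 and -0.41 in KO, against 2.28, 1.87 and 3.01 in WT (-2.23 ± 0.36, adjusted p = 0.0312). Ciita, the master regulator of class II antigen presentation, read 0.66, 0.98 and 1.09 in KO, against 2.65, 2.70 and 3.04 in WT (-1.89 ± 0.19, adjusted p = 0.0103). Each of Ifnlr1, Jak2, Apol9a, Apol9b and Cxcl10 lost its call under 11 to 13 of 17 other settings, and Ciita under 1.

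The labelled cell type was checked against its markers. Csf1r, the receptor of the growth factor of macrophages, read 6.66, 6.59 and 6.70 in KO and 7.01, 6.76 and 6.78 in WT. Of 7 macrophage markers 0 passed (summed log2 level 8.42 to 8.56 in KO, 8.34 to 8.51 in WT). Of these markers 4 had a higher mean in KO and 3, Csf1r among them, a lower one, with a median difference of 0.13. In bulk cultures, fewer cells of a type and less RNA per cell cannot be told apart. Over all genes 2.27% fell past the threshold, the share to set beside the marker counts that follow. Of dendritic cell markers 2 of 9 fell, and their summed log2 level ran from 7.56 to 7.70 in KO and from 7.99 to 8.23 in WT. Of plasmacytoid dendritic cell markers, a cell type known for type I interferon, 1 of 7 fell (6.24 to 6.56 in KO, 6.53 to 6.95 in WT), and Siglech read 5.96, 6.30 and 6.30 in KO and 6.68, 6.20 and 6.23 in WT. Of these 7 markers, 5 had a lower mean in KO and 2 a higher one. Their median level, unlike their sum, was not lower in KO (1.05, 1.15 and 1.42 in KO, 1.05, 0.97 and 1.07 in WT). Of granulocyte markers 1 of 7 fell (6.60 to 6.86 in KO, 7.37 to 7.68 in WT), of eosinophil, mast cell and basophil markers 3 of 7 (2.75 to 4.50 in KO, 4.65 to 5.78 in WT), and of stromal markers 4 of 8 (2.03 to 2.28 in KO, 3.60 to 5.57 in WT). T and NK cell markers, 0 of 6 past the threshold, ran from 1.64 to 1.79 in KO and from 1.83 to 2.20 in WT. B cell markers, 0 of 4 past it, ran from -0.78 to -0.20 in KO and from -1.17 to -0.72 in WT, though 3 of the 4 had a lower mean in KO and 1, Cd79b, a higher one (0.67). The NK cell gene Ncr1 was well above background on 0 of 3 KO arrays and 1 of 3 WT arrays, and the B cell gene Ms4a1 on 0 of 6. The part of these cell types in the members' values was not tested.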

How the data were processed

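Messenger RNA of 6 mice, 3 per genotype, was measured on Agilent arrays. Spot intensity values were extracted by the authors with Agilent Feature Extraction 10.7.3.1 per the file headers (9.1 per the submitters' processing notes). The headers hold measures of background subtraction and spatial detrending within the array. The 59305 spots other than controls on each array stand for 55681 probes, designed on mm9 per the file headers. Of these probes, 26413 matched a symbol of RefSeq (GRCm38.p6) through their transcript accession, and 29268 did not.

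The log2 processed signal minus the log2 of the array's 75th percentile was averaged over the spots of a probe, without outlier spots (0.20% to 0.39%). Probes well above background on at least 3 of 6 arrays were kept, and the one with the highest mean stood for its gene, which left 15736 genes, 35 of them with a missing value (no member among them). Genotypes were compared with limma 3.58.1 in R 4.3.3 (lmFit, eBayes, two-sided) without covariates, and adjusted p-values are Benjamini-Hochberg over all genes, with a threshold of 0.05. Each array is a mouse of its own per the labels, and no replicate number is shared between genotypes. On simulated data for KO against WT (15701 genes), 19 of 67 genes with a 2-fold change were recovered, 55 of 67 at 4-fold and 58 of 66 at 8-fold, with 10 false calls.

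Named genes were the members, and of each listed set of other pathway genes those past the threshold, or the largest 2 by size of difference where none passed, with Ifnb1 and Ifng. One gene of the rule is not reported here. The members and lists were chosen with earlier results of these data known. Alternatives were other normalizations, background correction, filters, the slide, sex, the mean of a gene's probes, each array left out, and the authors' deposited log2 table of 3215 probes, centred on the median of each probe, whose scaling between arrays is unknown. Normexp used median spot signals.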

Additional observations from a re-analysis of the deposited data

How the results depend on the processing

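No member passed under 15 of 17 alternatives. Gbp2 alone passed with normexp background correction and quantile normalization (1 member, adjusted p = 0.0421) and without KO 947 (1 member, adjusted p = 0.0464), with adjusted p up to 0.419 elsewhere. Leaving out 1 array gave 0 to 1 members. The members' median difference ran from -0.31 (without WT 2) to -0.027 (without WT 3), and was -0.030 without KO 949. It was 0.20 on arrays labelled male only and 0.036 with scaling to the array median. The whole count of 537 genes moved to 343 with quantile normalization, 275 with no filter, 84 and 255 with the slide as a fixed and a random block, 24 on the slide with both genotypes, 305 with sex as a covariate and 182 on male arrays. It ran from 77 (without WT 1) to 900 (without KO 947) with 1 array left out. In the authors' deposited table it was 1733 of 1844 genes. The authors had filtered that table to 3215 probes, so this count cannot be set beside the 537 of 15736 genes. That table held 0 of the members' probes by accession. It names 1 other probe Gbp5. The 4 genes with a passing sex interaction became 2 with no filter.

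Of 645 values for single members, 77 had the opposite sign, in 23 members, all with an adjusted p of 0.365 or more. On male arrays these were Irf7 at 0.19, Ifit1 at 0.089, Ifit2 at 0.33, Oas3 at 0.21, Isg15 at 0.39, Rsad2 at 0.12, Cmpk2 at 0.45, Bst2 at 0.11, Ifi35 at 0.29, Xaf1 at 0.38, Parp14 at 0.0024, Gbp5 at 0.065, Irgm1 at 0.27 and Tap1 at 0.24. With the slide as a fixed block, and on the slide with both genotypes, they were Irf7 at 0.16, Usp18 at -0.13, Ifit2 at 0.038, Oasl2 at -0.13, Bst2 at 0.27, Ifi35 at 0.44, Xaf1 at 0.27, Trim30a at -0.14, Irgm1 at 0.16 and Tap1 at 0.47. With the slide as a random block they were Usp18 at -0.027, Ifi35 at 0.012, Xaf1 at 0.052 and Tap1 at 0.13. Scaling to the array median, which adds 0.22 to the median of all genes, put Irf1 at 0.086, Bst2 at 0.071, Ifi35 at 0.0078, Xaf1 at 0.16, Parp14 at 0.033, Irgm1 at 0.12, Iigp1 at 0.040, Tap1 at 0.17 and Psmb9 at 0.0022. Quantile normalization put Usp18 at -0.063, Oasl2 at -0.0089, Rtp4 at -0.052, Igtp at -0.029 and Tap1 at 0.010, and with normexp Usp18 at -0.13, Rtp4 at -0.065 and Igtp at -0.037. Leaving out 1 array gave ranges over 0 for Usp18 (-0.18 to 0.28), Oasl2 (-0.40 to 0.53), Isg15 (-0.66 to 0.21), Cmpk2 (-0.63 to 0.12), Zbp1 (-0.012 to 0.42), Ifi35 (-0.53 to 0.10), Xaf1 (-0.31 to 0.17), Rtp4 (-0.43 to 0.41), Igtp (-0.083 to 0.25), Irgm1 (-0.23 to 0.17) and Tap1 (-0.30 to 0.15). The cause was not tested.

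Ifnb1 and the 6 pathway genes past the threshold were put through the same settings after the data had been seen. Ifnb1 passed without WT 2 (adjusted p = 0.0434) and in none of the 15 others. Apol9a, Apol9b and Cxcl10 passed in 6 of 17, Jak2 in 5, Ifnlr1 in 4 and Ciita in 16, lost on the slide with both genotypes. For each of these 6 genes, the passing settings include the authors' filtered table. No paired analysis was possible because the genotypes share no replicate number. Of 8 members with several probes above background on at least 3 arrays, 6 had the same sign on all, and Herc6 and Zbp1 did not, a count chosen after seeing the data.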
